A study of Mus musculus with 7 samples.

Results

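The genes described here encode the subunits of the oxidative phosphorylation system, complexes I to V of the inner mitochondrial membrane. They were chosen by symbol alone: protein-coding genes of GENCODE M21 named Nduf, Sdh, Uqcr, Cox or Atp5 with the subunit letters of those families, and all protein-coding genes of the mitochondrial genome. The rule found 96 annotated genes, of which 95 have a row among the 49315 genes of the count table, 82 in the nucleus and 13 on the mitochondrial genome. The rule goes by name, so it also takes in Cox7a2l, a factor of respiratory supercomplex assembly, Ndufa4l2, a paralog of Ndufa4 known as a hypoxia-induced gene, and Atp5s, which is not counted as a structural subunit. It leaves out Cox4i1, Cox4i2, Cyc1, Ndufab1 and Usmg5, which are described beside the members.

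Complexes I to IV pass electrons from NADH and succinate to oxygen and pump protons, except complex II, and complex V makes ATP from the proton gradient. Complex II is built only from nuclear genes, while the others combine nuclear subunits with a few made inside the mitochondrion. Haematopoietic stem cells are known for relying little on this system and erythroblasts for needing mitochondria to make haem, and mature red cells have none.

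RNA was sequenced after poly(A) selection from bone marrow of mice fed a chow diet and subjected to hindlimb ischemia, a surgical block of blood flow to the leg. The 4 KO libraries carry the genotype label miR-181a2b2-/-, and the 3 flox libraries miR-181a2b2flox/flox, floxed alleles of the same microRNA cluster. Diet, surgery and tissue were shared by both groups, no Cre driver is named in the sources used here, and the titles of the flox samples call them WT. The series title sets the work in a study of this microRNA cluster and the receptor CXCR4 in diabetic limb ischemia.

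Total counts per library ran from 43110251 to 48320848 in KO and from 46151300 to 51688514 in flox. Mir181a-2 and Mir181b-2, the deleted microRNA genes, had 0 counts in all 7 libraries, so poly(A) counts do not check the genotype labels. The labels name bone marrow as the source but their RNA protocol mentions white adipose tissue, so marker genes were examined. In CPM, counts scaled to a common library size with TMM factors, the sum of 15 erythroid markers was 58626 to 77603 in KO and 37288 to 62585 in flox, and that of 8 adipocyte markers 116 to 144 in KO and 107 to 236 in flox. Summed neutrophil markers were 33989 to 43192 CPM in KO and 42655 to 62114 CPM in flox, and summed B lineage markers 853 to 1091 CPM in KO and 80.0 to 802 CPM in flox. In bulk RNA, fewer cells of a type and less RNA per cell cannot be told apart. Of 15 intestinal epithelium markers, which sum to 140.1 to 185 CPM in KO and 65.0 to 68.6 CPM in flox, 14 were called higher in KO by edgeR. All 8 megakaryocyte markers had fold changes below 0 (median log2 -0.65), with none called, and their sums were 459 to 662 CPM in KO and 604 to 1116 CPM in flox. The 5 neuron markers, all below 0, summed to 3.69 to 5.24 CPM in KO and 8.12 to 10.5 CPM in flox without overlap, and Snap25 was called lower in KO (log2 fold change -1.15, edgeR adjusted p = 0.0318). None of these marker differences was tested for a part in the results below. The labels do not say whether each library is a separate animal, and p-values therefore reflect the spread among these 7 samples alone, part of which may be technical.

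The 13 mitochondrially encoded genes formed 2 classes by their counts. The first class of 7, mt-Nd1, mt-Nd2, mt-Nd4, mt-Nd5 and mt-Nd6 of complex I, mt-Cytb of complex III and mt-Co1 of complex IV, had 13180 to 236951 counts in every library. The other 6, mt-Nd3 and mt-Nd4l of complex I, mt-Co2 and mt-Co3 of complex IV, and mt-Atp6 and mt-Atp8 of complex V, had 2 to 37 counts. These 6 lie next to each other on the mitochondrial genome, between mt-Co1 and mt-Nd4. Mitochondrial mRNAs are cut from the same long transcripts, and mt-Co2 and mt-Co3 are core subunits of the same enzyme as mt-Co1.

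The nuclear genome holds a copy of this stretch on chromosome 1, annotated as unprocessed pseudogenes that run from 24611535 to 24616197 on the minus strand (GRCm38). Gm28661 is identical to mt-Co2 over 681 of its 684 bases, Gm10925 to mt-Atp6 over 678 of 681, Gm28437 to mt-Co3 over 783 of 784, and Gm10222 to mt-Nd4l over 294 of 297. Gm28438 differs from mt-Nd3 at 1 of 345 aligned bases. The first 60 bases of both pairs show what a read would have to tell apart, with capitals marking the base that differs, T3C, counted from the first base of mt-Nd3.
mt-Nd3: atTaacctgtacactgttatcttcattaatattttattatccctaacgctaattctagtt
Gm28438: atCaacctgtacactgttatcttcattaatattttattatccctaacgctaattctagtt
mt-Co2: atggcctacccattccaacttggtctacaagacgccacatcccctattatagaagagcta
Gm28661: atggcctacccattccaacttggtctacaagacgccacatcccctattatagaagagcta

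The well counted mt-Co1 and mt-Nd2 have nuclear copies too, with more differences in the copies shown here. Gm13340 on chromosome 2 aligns to all 1545 bases of mt-Co1 at 97.6% identity, and Gm13339 to 510 of the 1038 bases of mt-Nd2 at 96.7%. Their first 60 aligned bases are shown for contrast, with differing bases in capitals (C54A and A60G counted from the first base of mt-Co1, T579C from the first base of mt-Nd2).
mt-Co1: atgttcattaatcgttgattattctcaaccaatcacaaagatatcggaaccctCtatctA
Gm13340: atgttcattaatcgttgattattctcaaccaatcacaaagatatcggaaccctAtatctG
mt-Nd2: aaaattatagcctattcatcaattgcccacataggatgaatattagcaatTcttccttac
Gm13339: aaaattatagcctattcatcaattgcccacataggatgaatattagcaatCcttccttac

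The match between low counts and annotated near-identical copies was not complete. mt-Nd4 has its first 876 of 1378 bases in Gm28439 without a mismatch and the rest outside that copy. It had 19441 to 27467 counts, while the last 483 bases of mt-Co1 lie in Gm29216 with 1 mismatch. mt-Atp8 had 2 to 8 counts and no annotated copy at 95% identity or more, although 21.1% of it overlaps mt-Atp6. Only annotated pseudogenes were searched. The chromosome 1 bases between Gm10925, which ends at 24614651, and Gm28661, which starts at 24614885, were not. On the mitochondrial genome mt-Atp8 lies between mt-Co2 and mt-Atp6, so an unannotated copy of it there could not be seen. The copies themselves were counted at a low level: Gm28661 had 36 to 43 counts in KO and 35 to 38 in flox. Gm28438 stood above the others, with 409, 404, 330 and 444 counts in KO and 331, 431 and 377 in flox, against 18, 24, 17 and 26 counts of mt-Nd3 itself in KO and 28, 16 and 18 in flox. The 6 low genes summed to 91 to 118 counts in KO and 98 to 110 in flox, and the 5 chromosome 1 copies of them to 538 to 650 in KO and 549 to 626 in flox. The handling of reads with several possible origins is not stated in the labels or notes used here, so the levels of these 6 genes, and of the covered parts of mt-Nd4 and mt-Co1, are uncertain, and the part of multiple mapping in them was not tested.

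**Figure D1:**
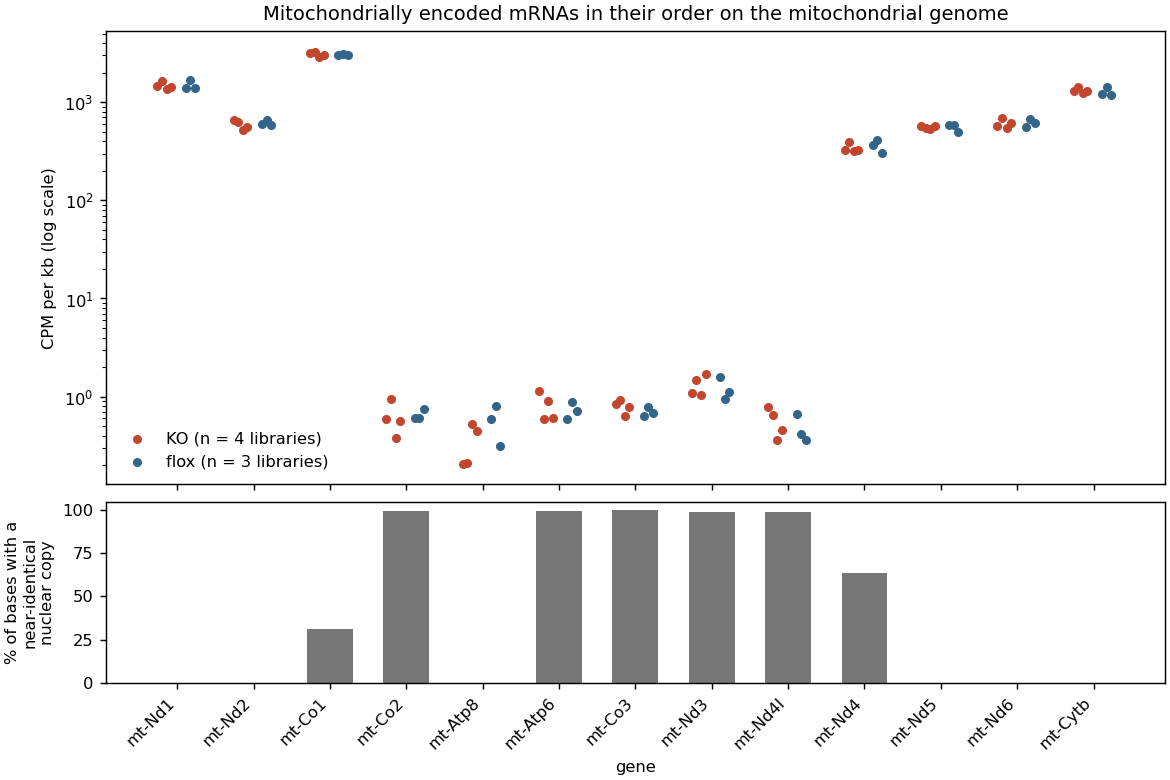
Upper panel: CPM per kilobase of the 13 mitochondrially encoded genes on a log scale, with 1 point per library, KO left and flox right within each gene, in gene order along the mitochondrial genome. Lower panel: percent of each gene's bases that align at 99% identity or more to an annotated nuclear pseudogene. The 6 genes from mt-Co2 to mt-Nd4l stay below 2 CPM per kb in every library, and all but mt-Atp8 of them have over 98% of their bases in such a copy.

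In level per length, the well counted mitochondrial genes stood above most nuclear subunit genes. mt-Co1 had the highest mean over the 7 libraries, 3066 CPM per kb, followed by mt-Nd1 at 1484 and mt-Cytb at 1303, and mt-Nd4 was the lowest of the 7 at 349. These levels use the full gene length. Near-identical nuclear copies cover 63.6% of the bases of mt-Nd4 and 31.3% of those of mt-Co1. The levels per length of both genes, and the rank of mt-Nd4, are therefore uncertain. mt-Co1, the catalytic subunit of cytochrome oxidase, had 4856, 5039, 4427 and 4723 CPM in KO and 4720, 4747 and 4646 CPM in flox. The flox values lay within the KO range.

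None of the 11 mitochondrial genes that passed the filter on low counts (filterByExpr, minimum count 10) was called between KO and flox at an adjusted p under 0.05 (edgeR, quasi-likelihood test). mt-Nd4, a proton-pumping subunit, had 452, 545, 438 and 452 CPM in KO and 503, 563 and 415 CPM in flox, the lowest fold change of the 7 well counted genes (log2 fold change -0.07, SE 0.117, edgeR adjusted p = 0.863). mt-Cytb, the only mitochondrial subunit of complex III, had 1484, 1623, 1436 and 1491 CPM in KO and 1404, 1648 and 1350 CPM in flox (log2 fold change 0.04, SE 0.0954, edgeR adjusted p = 0.904). In both genes the groups overlapped. mt-Nd1 (log2 fold change -0.02), mt-Nd2 (-0.05), mt-Nd5 (-0.01), mt-Nd6 (-0.04) and mt-Co1 (0.02) gave edgeR adjusted p-values of 0.871 to 0.987.

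mt-Nd6 is the only one of the 13 on the light strand and overlaps mt-Nd5 over 2.70% of its bases, and mt-Nd5 of the other strand had 976 to 1038 CPM in KO and 904 to 1076 CPM in flox. The low genes mt-Co2 (log2 fold change -0.08, SE 0.337), mt-Co3 (0.18, SE 0.247), mt-Atp6 (0.17, SE 0.318) and mt-Nd3 (0.12, SE 0.313) had wide errors, and mt-Nd4l and mt-Atp8 did not pass the filter. Their edgeR adjusted p-values were 0.816 to 0.949. Differences of 1.5-fold were not detectable for these at this depth.

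The mitochondrially encoded genes took 1.04, 1.10, 0.910 and 1.02% of all counts in KO and 0.967, 1.06 and 0.973% in flox, or 1.02% ± 0.0785 (SD, n = 4) and 0.998% ± 0.0496 (SD, n = 3). The 82 nuclear genes together took less, 0.670 to 0.688% in KO and 0.660 to 0.718% in flox. In both shares the groups overlapped. The ratio of nuclear to mitochondrial counts was 0.643, 0.626, 0.755 and 0.665 in KO and 0.683, 0.680 and 0.723 in flox. KO 3 had the lowest mitochondrial share and the highest ratio. The mitochondrial share and the ratio describe reads as counted. Both carry the uncertainty of the 6 low genes and of the covered parts of mt-Nd4 and mt-Co1.

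Among the nuclear genes, 78 of 82 passed the filter and none was called. Over all members, 0 of 89 tested genes were called by edgeR, where 0.145% of the 17920 tested genes were (26 genes), and 0 of 89 by DESeq2, where 2.04% were. The lowest adjusted p among the members was 0.25 by edgeR and 0.0847 by DESeq2, both for Cox6a2. At an unadjusted edgeR p under 0.05 there were 4 members, Ndufv3, Ndufb3, Cox6a2 and Cox5a, or 4.49%, below the 14.1% of all tested genes. All KO libraries lay below all flox libraries in 5 members (Ndufv3, Ndufs1, Sdhd, Sdha and Atp5f1), where 7.41% of all tested genes did so. They lay above in 1 member, Cox6a2, where 6.22% of all tested genes did so.

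The fitted changes were small. Of the 78 tested nuclear members 62 had a log2 fold change below 0, or 79.5%, with a median of -0.04 and a range of -0.26 to 0.72, and over all tested genes 51.9% were below 0 with a median of -0.01. Among the 9129 tested genes with a mean of at least 10 CPM, 55.7% were below 0 and the median was -0.02. With other scalings of the libraries 51 to 54 of the 78 were below 0 and the nuclear median was -0.015 to -0.028, while the median of all genes was 0.0012 to 0.014. Among the fits that left out a library each, the nuclear median turned above 0 only without flox 2. Without KO 1 it was -0.018, with 46 of 78 below 0. Without flox 2 the median was 0.01 and 33 of 78 were below 0, and without flox 1 the median was -0.07 and 69 of 78 were below 0. Without flox 2 the medians were also above 0 for the nuclear members of complex I (0.015), complex III (0.017) and complex IV (0.025), and below 0 for complex II (-0.05) and complex V (-0.0043). Counts below 0 for single complexes and related genes are given with TMM scaling only.

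The 95% intervals bound the size of a change better than the p-values do. For 76 of the 78 nuclear members and for the 7 well counted mitochondrial genes the whole interval lay within 1.5-fold in either direction (log2 0.585), and this held for all 75 nuclear members with a mean of at least 10 CPM. The same was true of 88.4% of all tested genes at that level and 55.2% of all tested genes. The exceptions among the nuclear members were Cox6a2 and Cox7a1. Over the 7 libraries the coefficient of variation of CPM had a median of 5.94% in those 75 nuclear members, 8.64% in the 7 mitochondrial genes and 8.64% in tested genes at that level. Of the 78 nuclear members, 27 share exonic bases with another gene, 24 of them with a gene on the opposite strand and 11 over more than 10% of their bases. Whether the counting used strand is not stated in the labels or notes used here, so reads of such pairs cannot be told apart.

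**Figure D2:**
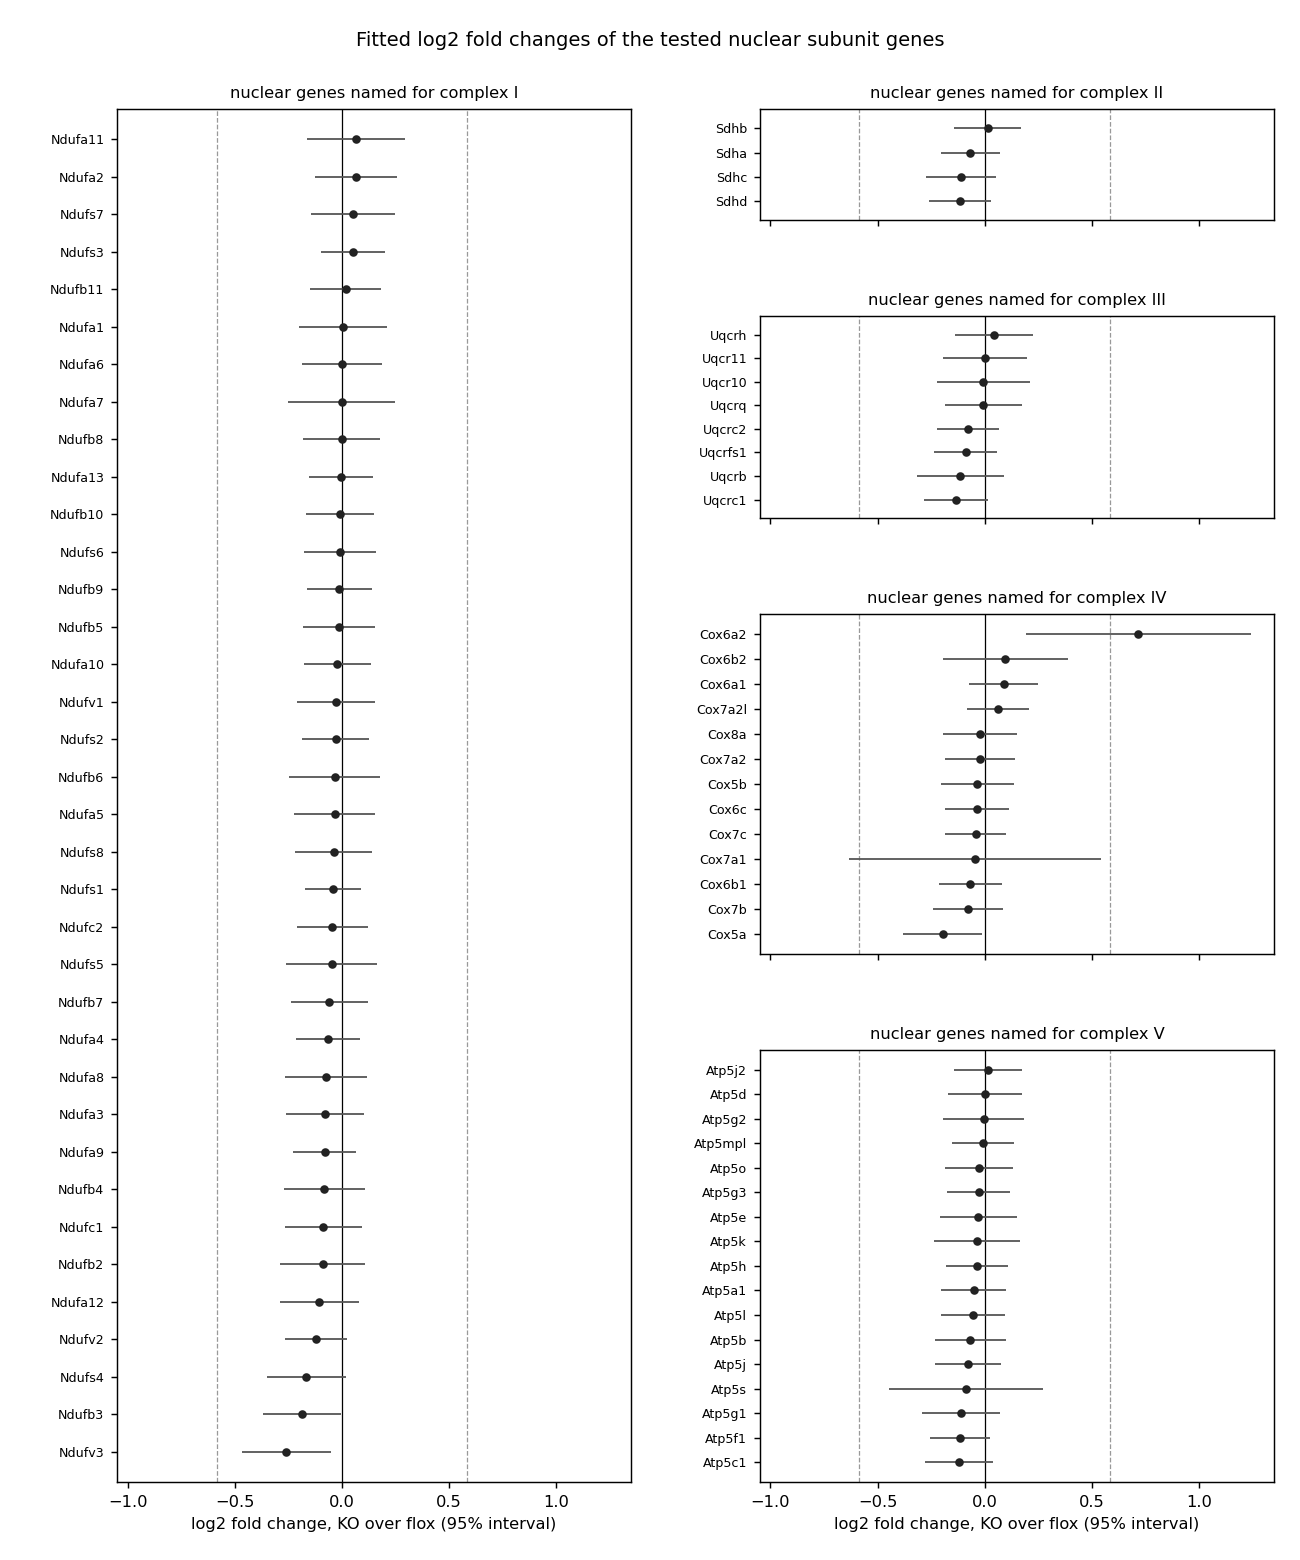
Log2 fold change of KO over flox for the 78 tested nuclear genes, by complex, with points for edgeR's estimate and lines for its 95% interval. Dashed lines mark 1.5-fold in either direction. Cox6a2 at 0.72 and Cox7a1 are the genes whose interval crosses a dashed line, and most points lie slightly left of 0.

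Complex I, the NADH dehydrogenase, had 36 of 37 nuclear members tested, of which 29 had a fold change below 0 (median -0.03). Ndufv3, an accessory subunit of the NADH-binding module, had 43.3, 52.6, 50.4 and 48.9 CPM in KO and 53.9, 65.4 and 55.9 CPM in flox, and every KO library was below every flox library. The fitted change of -0.26 on the log2 scale (SE 0.0926) was the lowest of all nuclear members and did not pass (edgeR adjusted p = 0.274). Ndufb3, an accessory subunit of the membrane arm, had 34.9, 37.8, 36.4 and 37.3 CPM in KO and 37.4, 45.6 and 42.1 CPM in flox, with 1 KO library above the lowest flox library.

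Ndufs4, an accessory subunit whose loss causes a fatal encephalopathy in mice, had 30.7, 32.8, 30.7 and 30.8 CPM in KO and 32.4, 39.3 and 33.5 CPM in flox. The groups overlapped there through KO 2 and flox 1 alone. The log2 fold changes were -0.19 (SE 0.0809) for Ndufb3 and -0.17 (SE 0.0826) for Ndufs4, with edgeR adjusted p-values of 0.343 and 0.396. Ndufs1, the large iron-sulfur subunit, differed little though its groups did not overlap: it had 100.5, 99.4, 103 and 103 CPM in KO and 107, 104 and 103 CPM in flox (log2 fold change -0.04, edgeR adjusted p = 0.817). Ndufa4, first described in complex I and now placed with cytochrome oxidase, had the highest level of this name family at 209 CPM per kb (log2 fold change -0.06, edgeR adjusted p = 0.738). Its paralog Ndufa4l2 was not tested, at 0.0422 to 0.107 CPM in KO and 0.0398 to 0.123 CPM in flox.

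Complex II, succinate dehydrogenase, is also an enzyme of the citrate cycle. Its membrane anchor Sdhd had 87.0, 94.0, 93.5 and 88.9 CPM in KO and 94.2, 102 and 99.6 CPM in flox, and the groups did not overlap (log2 fold change -0.12, SE 0.0647, edgeR adjusted p = 0.45). The flavoprotein Sdha had 215, 202, 211 and 204 CPM in KO and 218, 219 and 216 CPM in flox, again without overlap but with KO 1 next to flox 3 (log2 fold change -0.07, SE 0.0611, edgeR adjusted p = 0.688). The other anchor Sdhc had 66.4 to 76.0 CPM in KO and 74.4 to 82.3 CPM in flox (log2 fold change -0.11, SE 0.0729, edgeR adjusted p = 0.55). The iron-sulfur subunit Sdhb was level (log2 fold change 0.01). Per length Sdhd, Sdhb and Sdha were close together at 76.5, 73.5 and 73.2 CPM per kb, and Sdhc stood at 37.6. The transcripts of Sdhc run from 815 to 3171 bases, so its level per length, and its rank among these genes, is uncertain.

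In complex III, ubiquinol-cytochrome c reductase, 6 of 8 nuclear members had a fold change below 0 (median -0.04). The core subunit Uqcrc1 had 156, 162, 176 and 158 CPM in KO and 174, 184 and 179.7 CPM in flox, so that only KO 3 reached into the flox range (log2 fold change -0.13, SE 0.0674, edgeR adjusted p = 0.401). The Rieske iron-sulfur protein Uqcrfs1 had 80.0 to 89.1 CPM in KO and 88.1 to 91.9 CPM in flox (log2 fold change -0.09, SE 0.0659, edgeR adjusted p = 0.602). Uqcrb, a subunit at the ubiquinone site, had 49.7 to 55.7 CPM in KO and 49.9 to 64.1 CPM in flox (log2 fold change -0.12, SE 0.091, edgeR adjusted p = 0.633). The hinge protein Uqcrh had the highest level per length among the nuclear members of complex III, 179 CPM per kb, and a log2 fold change of 0.04. Cyc1, the cytochrome c1 subunit that the naming rule misses, had a log2 fold change of -0.03 (edgeR adjusted p = 0.884).

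Complex V, ATP synthase, had 15 of 17 members below 0 (median -0.04). Atp5f1, the b subunit of the peripheral stalk, had 213, 217, 214 and 212 CPM in KO and 224, 243 and 229 CPM in flox, and the KO values lay close together below all flox values (log2 fold change -0.12, SE 0.0622, edgeR adjusted p = 0.435). The rotor subunit Atp5c1 had 143, 151, 143 and 136 CPM in KO and 148, 168 and 150.4 CPM in flox, and KO 2 lay within the flox range (log2 fold change -0.12, SE 0.0713, edgeR adjusted p = 0.494). The catalytic beta subunit Atp5b was the most abundant nuclear subunit per length, 444 CPM per kb, and had 815, 809.9, 900.3 and 813 CPM in KO and 886, 877 and 859.8 CPM in flox. Here KO 3 was above every flox library and the other KO libraries below (log2 fold change -0.07, SE 0.0747, edgeR adjusted p = 0.758).

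Levels per length were set on the median length of each gene's protein-coding transcripts, a choice made after the levels had been seen on merged exons. Transcripts of 8 members differ over 2 times in length, so their levels are uncertain. Median levels per length were 53.4 CPM per kb for the tested nuclear members of complex I, 73.3 for complex II, 97.0 for complex III, 114 for complex IV and 127 for complex V. The middle 50% of genes ran from 39.1 to 70.3 CPM per kb in complex I and from 106 to 196 in complex V.

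The proteolipid c subunit, which forms the rotating ring of ATP synthase, is encoded by 3 genes whose mature proteins are identical. Atp5g3 gave 62.5% ± 1.57 of their summed level per length in KO and 62.6% ± 1.67 in flox (SD, n = 4 and 3). Atp5g2 gave 31.8% ± 1.58 in KO and 31.3% ± 1.28 in flox, and Atp5g1 5.76% ± 0.221 in KO and 6.11% ± 0.429 in flox. All 3 shares overlapped between the groups. Atp5g1 depends on the length taken: its transcripts run from 596 to 4715 bases, which puts its level anywhere from 86.3 to 10.9 CPM per kb. All 3 shares move with that choice, which their SDs do not cover. On their shortest transcripts Atp5g2 and Atp5g3 stood at 136 and 205 CPM per kb. The log2 fold changes were -0.03 for Atp5g3, -0.01 for Atp5g2 and -0.11 for Atp5g1 (edgeR adjusted p = 0.896, 0.988 and 0.598).

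Complex IV, cytochrome c oxidase, has several small subunits in a form found in most tissues and another restricted to heart and skeletal muscle or to testis. The marrow expressed mainly the widespread forms, with Cox6b2, described below, a sizeable minor form. Cox8a had 118 to 139 CPM in KO and 121 to 136 CPM in flox, while the heart and muscle form Cox8b had 1, 0, 2 and 1 counts in KO and 5, 4 and 1 counts in flox, and the testis form Cox8c had 1 count in KO 3 and 0 elsewhere. A count of 0 allows up to 0.0632 to 0.0683 CPM in KO and 0.0598 to 0.0641 CPM in flox, for counting error only. Cox7b2, a testis form, had 0 counts in all 7 libraries.

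Promoters of 3 of these genes are shown, to set strongly expressed forms beside a form that was barely counted. They are given from RefSeq on GRCm38.p6 as 250 bases before to 50 after the gene start, for Cox6a1 (chr5:115348909-115349208, minus strand), the highest nuclear member of the complex per length, for Cox8a (chr19:7217567-7217866, minus strand), and for its paralog Cox8b (chr7:140900397-140900696, minus strand). Capitals mark matches to the core motif GCGCATGC of the transcription factor NRF1 and to the ETS motif CCGGAAGT, each searched on both strands. In Cox6a1 they cover overlapping matches on the 2 strands.
Cox6a1: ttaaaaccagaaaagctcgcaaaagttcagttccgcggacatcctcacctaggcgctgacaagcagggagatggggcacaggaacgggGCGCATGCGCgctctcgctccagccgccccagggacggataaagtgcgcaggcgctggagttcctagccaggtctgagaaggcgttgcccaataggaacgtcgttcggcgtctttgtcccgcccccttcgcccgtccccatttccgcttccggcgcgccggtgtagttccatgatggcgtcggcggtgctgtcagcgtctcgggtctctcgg
Cox8a: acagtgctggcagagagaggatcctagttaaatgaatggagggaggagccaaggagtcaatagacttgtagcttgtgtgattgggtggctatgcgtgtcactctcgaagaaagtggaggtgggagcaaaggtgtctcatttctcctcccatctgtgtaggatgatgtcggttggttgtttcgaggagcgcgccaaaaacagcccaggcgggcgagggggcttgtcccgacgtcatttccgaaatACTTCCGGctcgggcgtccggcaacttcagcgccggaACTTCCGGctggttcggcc
Cox8b: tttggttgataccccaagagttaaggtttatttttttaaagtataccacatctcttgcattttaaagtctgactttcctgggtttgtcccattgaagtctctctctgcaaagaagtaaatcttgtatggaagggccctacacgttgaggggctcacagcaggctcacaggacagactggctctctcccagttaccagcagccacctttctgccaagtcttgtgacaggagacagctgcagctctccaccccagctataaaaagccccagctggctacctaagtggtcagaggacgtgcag

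The Cox6a1 and Cox8a windows hold 32 and 19 CpG dinucleotides, and the Cox8b window 2. The median was 19 in the nuclear members found and 15 in all genes. Other pairs did not all go the same way. Cox7a2 had 20 and Cox7a1 7, and Cox6b1 had 17 and Cox6b2 10, but Cox7b had 5 and its testis paralog Cox7b2 10. Promoters were found for 66 of the 82 nuclear members. The NRF1 core was in 10 of the 66 (15.2%) and in 3.94% of the promoters of 17492 genes, the ETS motif in 5 (7.58%) and in 5.69%, and the YY1 motif AAGATGGC in 9 (13.6%) and in 3.57%. None of the printed windows holds more than 1 of these 3 motifs, and a match describes letters, not binding.

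Cox6a2, the heart and skeletal muscle form of subunit 6A, was the nuclear member with the largest fold change. It had 5.31, 3.26, 4.47 and 2.91 CPM in KO and 2.61, 2.01 and 2.67 CPM in flox, from 98 to 252 counts a library. Every KO library was above every flox library, with KO 4 only slightly above flox 3. On the log2 scale KO exceeded flox by 0.72 (SE 0.235, with a 95% interval of 0.19 to 1.24), and the gene passed neither test (edgeR adjusted p = 0.25, DESeq2 adjusted p = 0.0847). Its exons share 10.3% of their bases with Itgad on the opposite strand. Beside the widespread form Cox6a1, at 138, 141, 161 and 151 CPM in KO and 139, 140.2 and 137 CPM in flox (log2 fold change 0.09, edgeR adjusted p = 0.649), it remained minor, with 2.23% ± 0.667 of the pair per length in KO and 1.45% ± 0.227 in flox (SD, n = 4 and 3).

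Summed skeletal muscle markers were 20.1, 17.2, 30.0 and 16.8 CPM in KO and 18.7, 15.5 and 16.6 CPM in flox. All 15 had a count in at least 1 library, 9 were tested, and these 9 had fold changes above 0 with a median log2 of 0.51, none called by edgeR. The sums overlapped between groups and the largest was KO 3, while the highest Cox6a2 was in KO 1. Cox6a2 has also been described in plasmacytoid dendritic cells. A list of 15 markers of those cells, written after the values were seen, summed to 875, 673, 694 and 716 CPM in KO and 473, 662 and 683 CPM in flox. That sum was highest in KO 1 and lowest in flox 1, while Cox6a2 was highest in KO 1 and lowest in flox 2. Irf8 was its largest part in every library, at 212 to 294 CPM in KO and 195 to 265 CPM in flox. Spib and Ly6d were lowest in flox 1, at 15.1 and 10.3 CPM, where the summed B lineage markers were lowest too. Of the 15 markers, 12 had fold changes above 0 and 3 below, with a median log2 of 0.32. Siglech, Klk1, Tlr9 and Cd300c were higher in every KO library than in every flox library. The other markers of the list overlapped between the groups. None of the 15 was called by edgeR, and the part of either cell type in the Cox6a2 values was not tested.

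**Figure D3:**
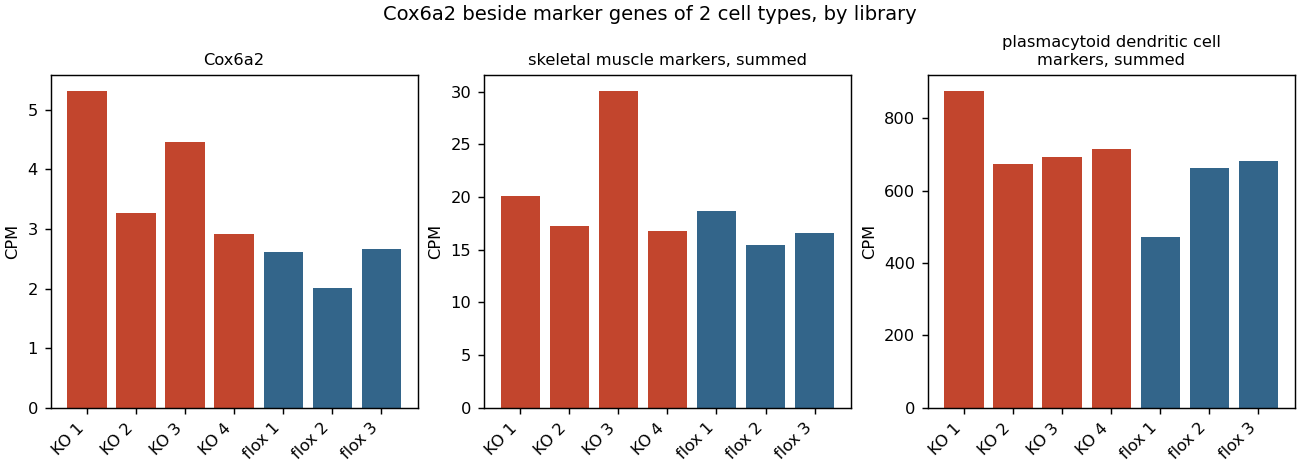
CPM of Cox6a2, of 15 skeletal muscle markers summed and of 15 plasmacytoid dendritic cell markers summed, with 1 bar per library, KO left and flox right. Cox6a2 runs from 2.91 to 5.31 in KO and from 2.01 to 2.67 in flox, while both marker sums overlap between the groups.

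Other restricted forms were measurable too, Cox6b2 at 39.1 CPM per kb and Cox7a1 and Cox4i2 at low levels. Cox6b2, known as a testis form, had 13.7, 19.1, 18.7 and 18.4 CPM in KO and 17.5, 14.3 and 17.3 CPM in flox, and made 19.0% ± 2.04 of the 6B pair per length in KO and 17.4% ± 2.14 in flox (SD, n = 4 and 3). The groups overlapped (log2 fold change 0.10, edgeR adjusted p = 0.811). Summed testis markers were 1.29 to 3.10 CPM in KO and 2.07 to 3.10 CPM in flox, with Tnp1 at 0 in all 7 libraries. Cox7a1, the muscle form of 7A, stood at 0.787 ± 0.177 CPM in KO and 0.813 ± 0.176 CPM in flox against 64.2 ± 4.07 and 65.2 ± 2.79 CPM for Cox7a2 (SD, n = 4 and 3). Cox4i2, a form induced at low oxygen in lung, was at 0.163% ± 0.0505 of the subunit 4 pair per length in KO and 0.211% ± 0.0744 in flox (SD, n = 4 and 3).

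**Figure D4:**
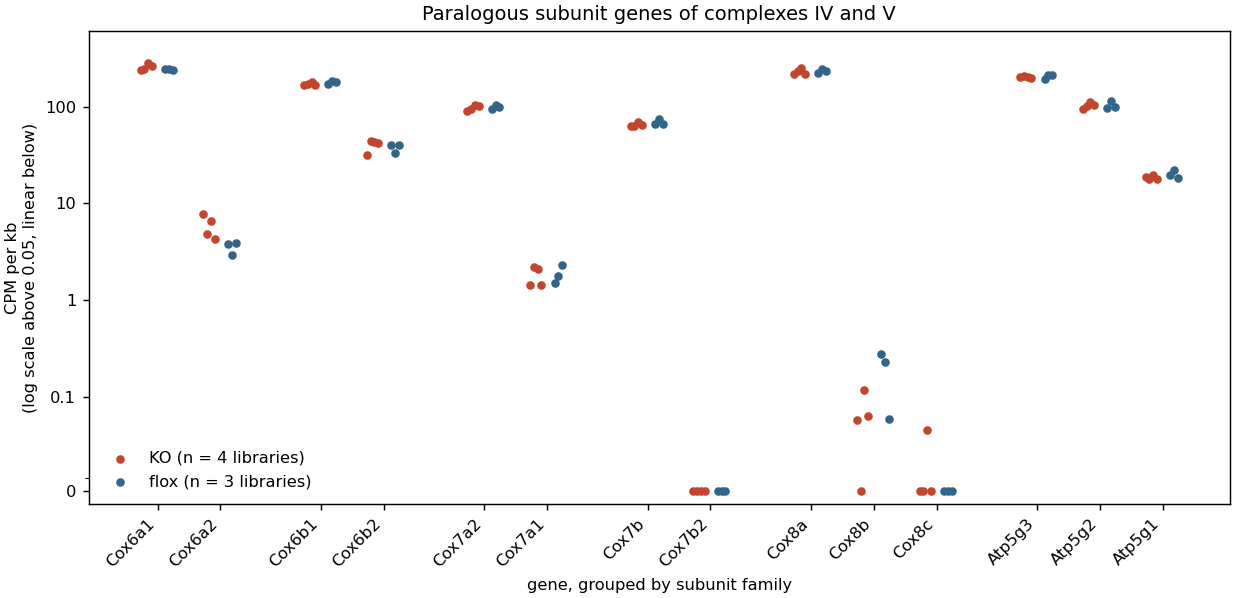
CPM per kilobase of paralogous subunit genes of complexes IV and V, with 1 point per library, KO left and flox right within each gene. The scale is logarithmic above 0.05 and linear below, so that zeros can be shown. Cox6a1, Cox6b1, Cox7a2, Cox7b and Cox8a lie above 50, Cox6b2 lies near 39.1, and the other restricted forms lie below 10.

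Of the widespread subunits of complex IV, Cox5a had the lowest p. It lies on the matrix side of the enzyme and had 71.8, 73.2, 66.5 and 65.5 CPM in KO and 72.4, 88.0 and 77.7 CPM in flox, with KO 2 above flox 1 (log2 fold change -0.20, SE 0.0829, edgeR adjusted p = 0.331). Exons of Cox5a share 12.8% of their bases with Gm26631 on the opposite strand. Cox7a2l, the supercomplex factor, had 97.2 to 104 CPM in KO and 93.2 to 103 CPM in flox (log2 fold change 0.06, edgeR adjusted p = 0.746). Of 13 tested nuclear members of the complex 9 were below 0 (median -0.04).

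The level of the nuclear members as a group differed between libraries. Their mean log2 CPM, relative to the mean of the 7 libraries, was -0.07, -0.0047, 0.06 and -0.04 in KO and -0.04, 0.08 and 0.01 in flox, so that both groups held libraries above and below 0. Of the 78 tested nuclear members 42 had their highest CPM in flox 2 and 27 in KO 3, and 39 had their lowest in KO 1, 14 in flox 1 and 11 in KO 4. For the 7 well counted mitochondrial genes the means were 0.0005, 0.11, -0.12 and -0.03 in KO and -0.02, 0.14 and -0.09 in flox. KO 3 was thus high for nuclear subunits and lowest for mitochondrial ones, and flox 2 high for both. KO 3 also had the highest erythroid sum at 77603 CPM, and flox 2 the lowest at 37288 CPM and the highest neutrophil sum at 62114 CPM. The part of cell composition in this variation was not tested.

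**Figure D5:**
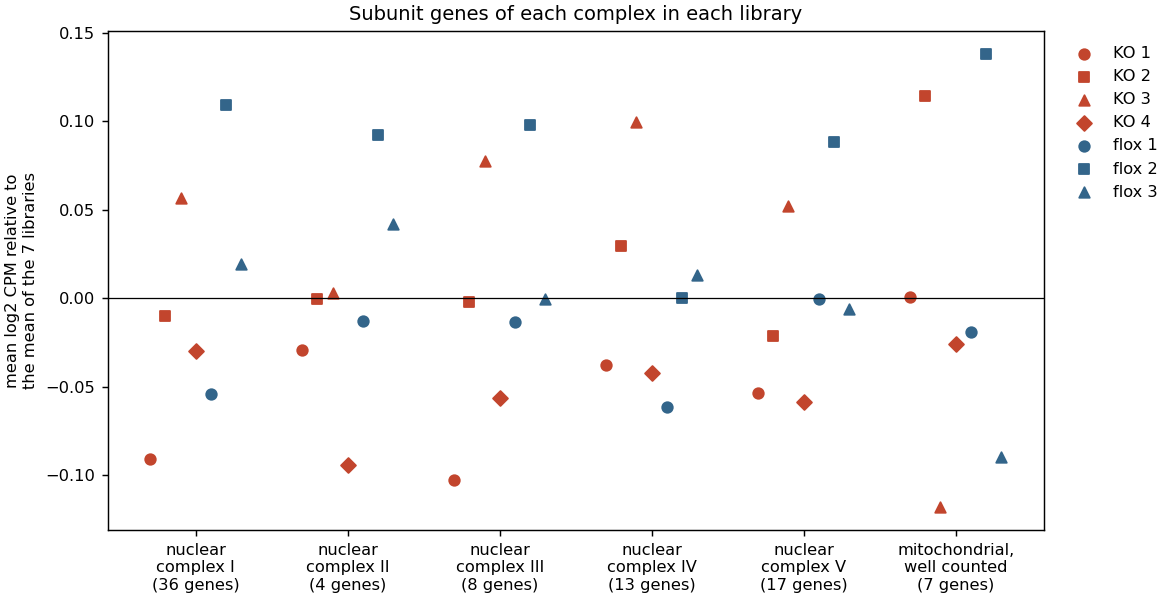
Mean log2 CPM of the tested nuclear members of each complex, and of the 7 well counted mitochondrial genes, relative to the mean of the 7 libraries, with 1 marker per library, KO left and flox right. Flox 2 is the highest library in every nuclear complex but IV, where KO 3 is.

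The genes around the oxidative phosphorylation system held no called gene by edgeR either. The 5 subunits that the naming rule misses were all below 0 (median -0.03), and Usmg5 was added to them after the list was first written. Among 47 tested assembly factors 27 were below 0 (median -0.03). Surf1, needed to assemble complex IV, had 24.1 to 27.6 CPM in KO and 28.5 to 31.0 CPM in flox (log2 fold change -0.23, SE 0.0769, edgeR adjusted p = 0.256). Coa5, a factor of the same complex, had a log2 fold change of -0.17 (edgeR adjusted p = 0.341).

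Of 29 genes of mitochondrial transcription and RNA handling 17 were below 0 (median -0.03). Mterf2, of the mitochondrial transcription termination factor family, had 3.65, 3.67, 3.06 and 3.89 CPM in KO and 1.77, 2.23 and 2.74 CPM in flox, without overlap. Its log2 fold change of 0.67 (SE 0.189) passed with DESeq2 (adjusted p = 0.0429) and not with edgeR (adjusted p = 0.22). Tfam, which packages and transcribes mitochondrial DNA, had 36.2 to 40.7 CPM in KO and 33.1 to 36.2 CPM in flox (log2 fold change 0.14, edgeR adjusted p = 0.419).

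Of 12 regulators of mitochondrial biogenesis 10 were above 0 (median 0.09). Ppargc1a, the coactivator PGC-1alpha, was barely expressed, at 0.907, 0.853, 1.07 and 0.842 CPM in KO and 0.339, 0.533 and 0.727 CPM in flox, and every KO library was above every flox library (log2 fold change 0.79, SE 0.285, edgeR adjusted p = 0.277). Among 18 citrate cycle genes 16 were below 0 (median -0.04), the lowest p being that of Dlat, a component of pyruvate dehydrogenase, at -0.18 (edgeR adjusted p = 0.288), followed by Mdh2, malate dehydrogenase, at -0.14 (edgeR adjusted p = 0.39). Among 78 mitochondrial ribosomal protein genes 56 were below 0 (median -0.04), with Mrps16 at -0.20 and Mrpl49 at 0.24 (edgeR adjusted p = 0.284 and 0.319).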

How the data were processed

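Poly(A) RNA of 7 bone marrow libraries was sequenced, per the labels' protocols. The authors deposited raw read counts per Ensembl gene. Trimmomatic 0.36, STAR 2.5.2b, featureCounts of Subread 1.5.2 and GRCm38 are named in the submitters' processing notes. Neither these notes nor the labels give the annotation release, the use of strand or the handling of multiply mapping reads.

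The library codes in the labels tied each column to a sample, leaving 0 columns unmapped. Of 49315 gene IDs, 49056 matched GENCODE M21. Counts were analysed in R 4.3.3 with edgeR 4.0.16: filterByExpr (minimum count 10), TMM, robust glmQLFit and glmQLFTest, two-sided, with Benjamini-Hochberg adjustment over the 17920 tested genes and a threshold of 0.05. DESeq2 1.42.0 was an alternative. CPM was computed on TMM-scaled library sizes, with a prior count of 2 for log2 values. Fold changes are KO over flox. The edgeR script was tested on simulated counts, where it recovered 48% of 1.5-fold changes and 78% of 2-fold changes. Of its 177 calls there, 19 were false. Intervals and floors cover counting error or the spread between libraries only, and a floor is 3 counts. Copies of mitochondrial genes were sought among annotated pseudogenes at 95% identity or more.

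Named genes were all mitochondrial members, 3 nuclear members of lowest p and the highest per length in each complex, fixed isoform families, and 2 of lowest p in each related list. Ndufs1, Sdhb, the promoters and the plasmacytoid list were chosen after their values were seen. The members and lists were chosen with earlier results of these data known. Alternatives were other scalings, filters and dispersion settings, DESeq2, a replicate block, and fits without each library in turn.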

Additional observations from a re-analysis of the deposited data

Results flagged for a closer look

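In 5 of 58 values examined over the 4 KO libraries, the highest or lowest library lay so far from the next that the gap, as a share of the group's range, was above Dixon's 95% critical value for 4 samples. Chance gives about 1 in 20 groups. The shares were 0.8637 for mt-Nd4, where KO 2 was high at 545 CPM, and 0.93 for Ndufs4, where KO 2 was high at 32.8 CPM. They were 0.9447 for Atp5b, where KO 3 was high at 900.3 CPM, and 0.873 for Cox6b2, where KO 1 was low at 13.7 CPM. Ndufab1, the acyl carrier protein of complex I, had a share of 0.8428, with KO 1 high at 41.5 CPM. The 3 flox libraries are too few for this examination.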

How the results depend on the processing

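No member was called under any alternative, and the lowest adjusted p of a member ran from 0.0847 (DESeq2) to 0.43 (without flox 2). The number of genes called moved from 26 to 112 with no filter on low counts, 365 with DESeq2 and 16 with non-robust dispersion, and ran from 2 to 14 when each library was left out. Low counts limit the mitochondrial genes of 2 to 37 counts.

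The replicate numbers did not pair the libraries (correlations of deviations -0.022, 0.077 and 0.023), so the block is an alternative only. The fit with the replicate number as a block called 4 genes, as did the fit of the same 6 libraries without it, chosen after seeing the data. In these 2 fits the log2 fold change turned sign for mt-Nd3 (-0.0066 and -0.02), Cox7a1 (0.041 and 0.043) and Cox8a (0.0089 and 0.0099).

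Signs turned in 17 of 41 named genes, whose planned log2 fold changes were at most 0.17 in size, and none was called. For mt-Nd5 the value was 0.0091 with DESeq2 size factors, 0.019 on library size only, 0.0040 without mitochondrial and haemoglobin genes, 0.0021 with no filter and 0.0091 with the DESeq2 test. For Atp5g2 those values were 0.0085, 0.015, 0.0028, 0.0010 and 0.0085, and mt-Nd1 stood at 0.0021 on library size only. Over the fits that left out 1 library each, the median of nuclear complex IV ran from -0.066 (without flox 1) to 0.025 (without flox 2), and without flox 2 those of complexes I and III turned too (0.015 and 0.017). Log2 fold changes over the same fits ran from -0.045 to 0.33 for mt-Atp6, -0.0011 to 0.065 for mt-Co1, -0.35 to 0.11 for mt-Co2 and -0.017 to 0.15 for mt-Cytb. They ran from -0.072 to 0.087 for mt-Nd1, -0.11 to 0.024 for mt-Nd2, -0.020 to 0.37 for mt-Nd3 and -0.18 to 0.058 for mt-Nd4. Further ranges were -0.085 to 0.055 for mt-Nd5, -0.11 to 0.048 for mt-Nd6, -0.055 to 0.091 for Atp5g2 and -0.080 to 0.016 for Atp5g3. For nuclear genes they were -0.064 to 0.0034 for Cox4i1, -0.18 to 0.13 for Cox7a1, -0.055 to 0.027 for Cox7a2 and -0.067 to 0.036 for Cox8a. The rest were -0.10 to 0.0063 for Ndufa4. The cause of these moves was not tested.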
